A study of Homo sapiens with 10 samples.

Results

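The Polycomb repressive complex genes examined here were 9 core subunits chosen by name: *EZH2*, *EZH1*, *EED*, *SUZ12* and *JARID2* of PRC2, and *RNF2*, *RING1*, *BMI1* and *CBX2* of PRC1. Of these, 8 had a row among the 19695 gene symbols of the RNA-seq count tables, and the RNA level of *RING1* was not analysed here. The cells were T47D, an established luminal breast cancer line, transfected for 72 h with control siRNA, with siRNA against *TRPS1* or with siRNA against *CHD4*, and RNA was sequenced after depletion of ribosomal RNA. Each group had 2 libraries, labelled replicates 1 and 2, and nothing in the labels says whether these came from separate cultures, so the p-values measure only the spread between these libraries. For *CHD4* the labels name an siRNA, whereas the study's RNA-seq methods name an shRNA. TRPS1 ChIP-seq of T47D cells, with 2 ChIP and 2 input libraries, gave 1 list of peaks.

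Polycomb proteins keep genes silent through marks on histones. PRC2 methylates lysine 27 of histone H3 with EZH2 or its paralog EZH1 as the catalytic subunit, EED and SUZ12 as the partners that make the enzyme active, and JARID2 as an accessory subunit that helps to bring it to chromatin. PRC1 ubiquitylates histone H2A through the RING proteins RNF2 (RING1B) and RING1, paired with a PCGF protein such as BMI1, and its canonical forms read the PRC2 mark through a CBX protein such as CBX2. In breast epithelium EZH2 is known for its high level in dividing and malignant cells, while EZH1 is typical of cells that divide little. TRPS1 is an atypical GATA factor that represses transcription, and CHD4 is the remodelling ATPase of the NuRD corepressor, a complex that shares the histone chaperones RBBP4 and RBBP7 with PRC2.

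The RNA-seq libraries held 10333138 to 14668358 counts, at which 3 counts, taken as the limit of detection, corresponded to 0.197 to 0.288 CPM, a gene's counts scaled to a common library total with TMM factors over the 6 libraries. All levels below are in this normalized CPM. *TRPS1* was at 1857 ± 583 CPM with control siRNA and 944 ± 314 CPM with *TRPS1* siRNA (mean ± SD, n = 2 libraries per group here and below), and *CHD4* at 293 ± 10.5 and, with *CHD4* siRNA, 75.0 ± 29.3 CPM. The control libraries resembled each other less than the others did, with a Pearson r of log2 CPM across genes of 0.898, against 0.978 between the *TRPS1* siRNA and 0.970 between the *CHD4* siRNA libraries. The summed level of 8 luminal markers was 11036 to 14347 CPM with control siRNA, 5464 to 5845 with *TRPS1* siRNA and 5034 to 6956 with *CHD4* siRNA. *KRT8* was at 5196 and 3336 CPM with control, 1075 and 1232 with *TRPS1* and 1205 and 1146 with *CHD4* siRNA. *FOXA1* was at 261 and 292, 272 and 190, and 386 and 251 CPM in the same order. Of the 8 markers, 0 had a positive log2 fold change against control siRNA with *TRPS1* siRNA and 2 with *CHD4* siRNA. Of 9 markers of basal, mesenchymal, fibroblast, blood and endothelial cells, *COL1A1* reached 156 CPM, *VIM* 17.3 and *CD68* 4.99, while *KRT5*, *KRT14*, *COL1A2*, *PTPRC*, *CD3E* and *PECAM1* had at most 6 counts in any library.

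No Polycomb subunit passed the edgeR quasi-likelihood F-test at a Benjamini-Hochberg adjusted p under 0.05 in any of the 3 comparisons. These fits had no replicate block, and 7 of the 9 genes had enough counts to be tested. No gene passed in any of the comparisons, the targeted *TRPS1* and *CHD4* included. In simulated counts for the comparisons with control siRNA, most genes given a true log2 difference of 2 were missed. This was at a dispersion (modelled spread between libraries) of 0.142 and 0.151. An absence of calls against control siRNA therefore does not by itself exclude changes of that size. For the 7 subunits tested, the 95% confidence intervals excluded a log2 difference of 2 in either direction, except for *CBX2* with *TRPS1* siRNA (lower limit -2.04). The other limits with *TRPS1* siRNA lay between -1.75 (*EED*) and 1.44 (*SUZ12*). With *CHD4* siRNA all lay between -1.44 (*EED*) and 1.48 (*EZH1*). These intervals rest on the spread between 2 libraries per group. Between *TRPS1* siRNA and control siRNA 0 of the 7 passed, where 0% of the 12921 genes tested did so. A fold change over 2 with an unadjusted p under 0.05 was met by 0 of the 7 and by 5.87% of all genes, and 902 genes had an unadjusted p under 0.05. Between *CHD4* siRNA and control siRNA these numbers were 0 of 7 beside 0% of 12918 genes, and 0 of 7 beside 5.45%, with 769 genes at an unadjusted p under 0.05. Between *CHD4* siRNA and *TRPS1* siRNA they were 0 of 7 beside 0% of 13143 genes, and 0 of 7 beside 3.67%, but 2 of the 7, *RNF2* and *CBX2*, had an unadjusted p under 0.05, as 15.4% of all genes did. The edgeR likelihood ratio test called 34, 58 and 570 genes in the 3 comparisons and DESeq2 37, 50 and 456, with no Polycomb subunit among them in either tool. *EZH1* was the gene whose *TRPS1* siRNA libraries both lay above both control libraries, which made 1 of 7 without overlap between groups beside 44.1% of all genes. With *CHD4* siRNA *EZH1* and *RNF2* did so, 2 of 7 beside 39.8%. In the direct comparison *RNF2*, *CBX2* and *SUZ12* had groups that did not overlap, 3 of 7 beside 47%. In bulk RNA a smaller number of cells expressing a gene and less RNA per cell cannot be told apart.

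**Figure D1:**
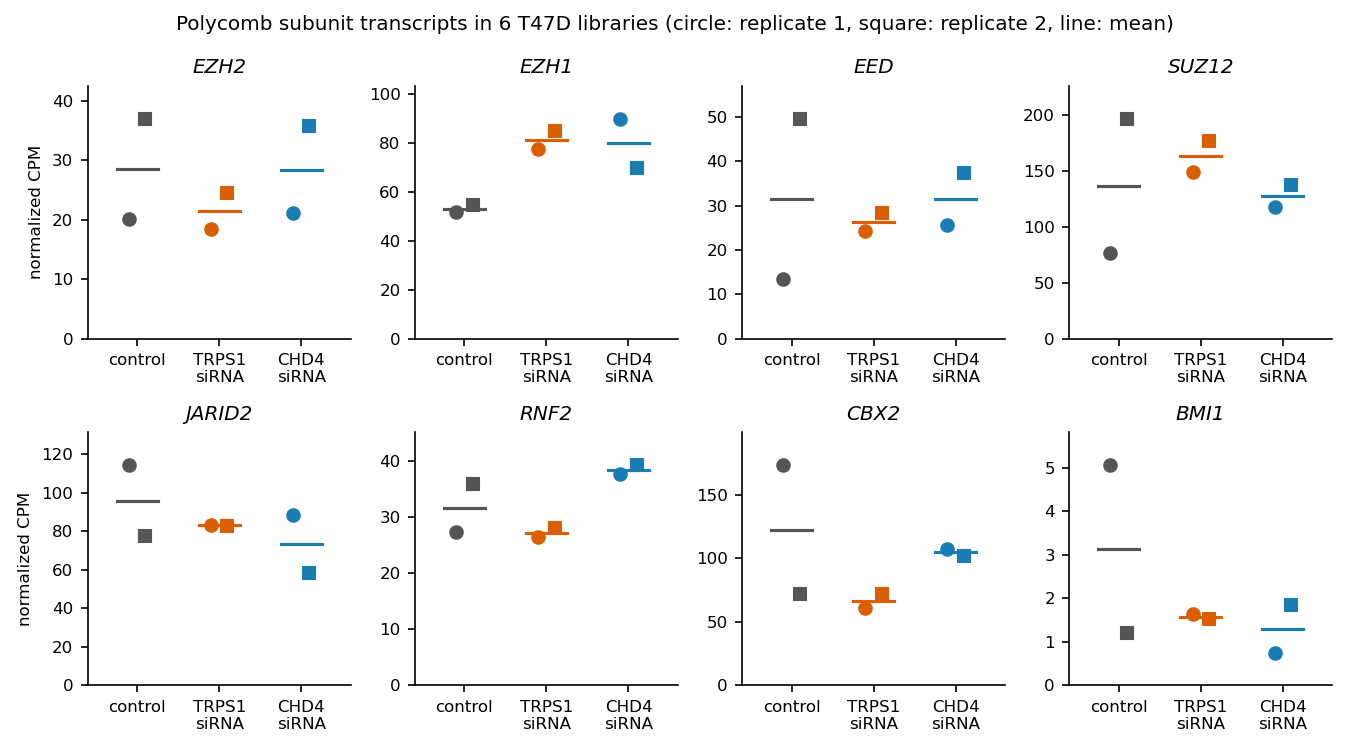
Normalized CPM (vertical axes, linear from 0) of the 8 Polycomb subunits with a count row in control siRNA, *TRPS1* siRNA and *CHD4* siRNA libraries, with circles for replicate 1, squares for replicate 2 and a line at the mean of both. *EZH1* lies between 51.7 and 54.5 CPM in the control libraries and between 69.8 and 89.9 CPM in the 4 knockdown libraries, while the control libraries of *EED* and *SUZ12* lie on both sides of all 4 knockdown libraries.

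Of the catalytic subunits, *EZH2* did not separate the groups. The gene lies at chr7:148807383-148884291 (hg38, minus strand) and is the PRC2 methyltransferase of dividing cells. It had 274 and 490 counts in the control libraries, 193 and 374 with *TRPS1* siRNA and 226 and 446 with *CHD4* siRNA, or 20.1 and 37.0, 18.5 and 24.5, and 21.1 and 35.8 CPM. In each group replicate 2 was the higher library, and the 3 ranges overlapped. The log2 fold change was -0.40 (standard error 0.44, 95% confidence interval -1.47 to 0.67, edgeR adjusted p = 0.775) with *TRPS1* siRNA and 0.00 (0.48, -1.13 to 1.14, adjusted p = 0.999) with *CHD4* siRNA. Between the knockdowns it was 0.40 (0.30, -0.33 to 1.14, edgeR adjusted p = 0.581).

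*EZH1* (chr17:42700275-42745040, minus strand), the paralog with weaker methyltransferase activity, stood at a higher level in all 4 knockdown libraries than in the control libraries. It was at 51.7 and 54.5 CPM with control siRNA, 77.8 and 84.9 CPM with *TRPS1* siRNA and 89.9 and 69.8 CPM with *CHD4* siRNA. The control libraries lay within 3 CPM of each other, closer than for any other member relative to its level, and the knockdown groups overlapped. Both fits share these control libraries. Both libraries lay above both controls for 2945 of 12921 genes with *TRPS1* siRNA and 2598 of 12918 with *CHD4* siRNA. The share of genes with all 4 knockdown libraries above the controls was not computed. The log2 fold change was 0.62 (standard error 0.33, 95% interval -0.16 to 1.40, unadjusted p = 0.102, edgeR adjusted p = 0.659) with *TRPS1* siRNA and 0.60 (0.38, -0.28 to 1.48, unadjusted p = 0.155, adjusted p = 0.798) with *CHD4* siRNA, and the intervals include no change as well as a more than doubled level. Between the knockdowns the log2 difference was -0.02 (0.18, -0.47 to 0.43, edgeR adjusted p = 0.974).

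A ratio of both paralogs within a library needs no scaling between libraries. There were 0.389 and 0.678 *EZH2* counts per *EZH1* count in the control libraries, 0.238 and 0.289 with *TRPS1* siRNA, and 0.235 and 0.513 with *CHD4* siRNA. As a share of the counts of both genes, *EZH2* took 28.0% (exact 95% binomial interval 25.2 to 30.9) and 40.4% (37.6 to 43.2) in the control libraries. The share was 19.2% (16.8 to 21.8) and 22.4% (20.4 to 24.5) with *TRPS1* siRNA, below both control libraries. With *CHD4* siRNA it was 19.0% (16.8 to 21.4) and 33.9% (31.3 to 36.5), and the second value lay between those of the control libraries. The intervals cover counting error only. The mean log2 ratio differed by -0.97 between *TRPS1* siRNA and control siRNA (two-sided exact permutation p = 0.33, the smallest that 2 against 2 libraries allow), by -0.57 between *CHD4* siRNA and control siRNA (exact p = 0.6667) and by 0.40 between *CHD4* siRNA and *TRPS1* siRNA (exact p = 1). Leaving out each library in turn gave -1.37 to -0.57 for the first difference, -1.13 to -0.0016 for the second and -0.16 to 0.97 for the last, which was -0.16 without *CHD4* siRNA replicate 2.

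**Figure D2:**
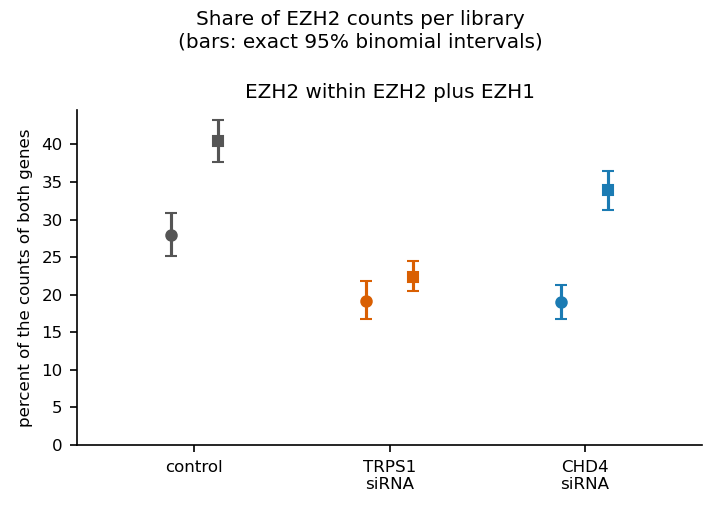
*EZH2* counts as a percentage of *EZH2* plus *EZH1* counts (vertical axis, linear from 0) per library, with circles for replicate 1, squares for replicate 2 and bars for exact 95% binomial intervals. The *TRPS1* siRNA libraries sit at 19.2% and 22.4%, below the control libraries at 28.0% and 40.4%.

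The sequences before the starts of these genes are shown because the ChIP-seq protein is a GATA factor and because *EZH2* and *EZH1*, which share a function, have unlike starts. Each is the 250 bases upstream of a gene's start in RefSeq (GRCh38.p14), read 5′ to 3′ on the gene's strand. They span chr7:148884292-148884541 for *EZH2*, chr17:42745041-42745290 for *EZH1*, chr11:86244503-86244752 for *EED* and chr17:31936757-31937006 for *SUZ12*. Capitals mark CCAAT (a box common in promoters of cell cycle genes, read as ATTGG on the other strand), the GATA words (GATA with A or T before it and A or G after it), and the E2F words TTTCGCGC, TTTGGCGC and TTTCCCGC, all searched on both strands. No marked words overlap.
EZH2: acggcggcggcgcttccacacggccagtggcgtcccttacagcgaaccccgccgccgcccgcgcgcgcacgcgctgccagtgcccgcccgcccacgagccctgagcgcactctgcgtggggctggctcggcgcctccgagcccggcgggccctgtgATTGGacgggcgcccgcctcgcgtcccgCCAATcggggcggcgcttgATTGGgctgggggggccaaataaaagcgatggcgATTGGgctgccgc
EZH1: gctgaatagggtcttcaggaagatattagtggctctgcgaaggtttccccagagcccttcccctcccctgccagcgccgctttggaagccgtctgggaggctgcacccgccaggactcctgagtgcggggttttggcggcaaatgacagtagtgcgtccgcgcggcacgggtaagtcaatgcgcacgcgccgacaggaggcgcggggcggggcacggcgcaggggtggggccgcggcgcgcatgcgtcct
EED: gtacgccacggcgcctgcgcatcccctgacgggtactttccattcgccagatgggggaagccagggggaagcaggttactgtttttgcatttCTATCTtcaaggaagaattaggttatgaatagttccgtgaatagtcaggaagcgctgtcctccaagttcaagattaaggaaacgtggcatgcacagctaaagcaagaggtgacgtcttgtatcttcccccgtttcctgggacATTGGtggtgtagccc
SUZ12: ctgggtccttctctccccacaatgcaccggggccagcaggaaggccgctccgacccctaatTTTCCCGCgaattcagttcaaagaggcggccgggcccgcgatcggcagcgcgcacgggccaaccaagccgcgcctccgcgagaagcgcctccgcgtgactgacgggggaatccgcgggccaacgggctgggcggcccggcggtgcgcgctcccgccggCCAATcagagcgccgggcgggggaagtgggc

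*EZH2* held 4 CCAAT words, at 94 to 90, 66 to 62, 47 to 43 and 13 to 9 bases before its start, while *EZH1* held none. Of the 27305 RefSeq promoters in the table, 33.0% held at least 1 CCAAT word and 0.93% held at least as many as *EZH2*. *EED*, *SUZ12* and *JARID2* held 1 each, and *RNF2*, *RING1* and *BMI1* none. A GATA word was found in 1 of the 8 promoters of members in the table, in *EED* as AGATAG on the minus strand of the gene, 158 to 153 bases before the start (printed as CTATCT), and in 22.9% of all promoters. An E2F word was found in *SUZ12*, 189 to 182 bases before the start, and in 2.38% of all promoters. In *EZH2* the E2F word TTTGGCGC lay just after the start, at bases 2 to 9. The members' promoters had a median of 34 CG dinucleotides against 11 over all promoters, with 38 in *EZH2* and 11 in *EED*. All promoters here include those of genes not tested in these cells. These matches describe the letters only.

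The subunits that complete the PRC2 core differed between the control libraries more than between the groups. *EED* (chr11:86244753-86287615), which binds the methylated histone tail and stimulates the enzyme, was at 13.3 and 49.6 CPM with control siRNA, 24.2 and 28.4 CPM with *TRPS1* siRNA and 25.6 and 37.5 CPM with *CHD4* siRNA. All 4 knockdown libraries lay between the control libraries. Its log2 fold change was -0.25 (standard error 0.62, edgeR adjusted p = 0.901) with *TRPS1* siRNA, 0.01 (0.62, adjusted p = 0.998) with *CHD4* siRNA and 0.27 (0.23, adjusted p = 0.654) between the knockdowns. *SUZ12* (chr17:31937007-32001038), the scaffold of the complex, had the same pattern against control siRNA. It was at 76.5 and 196 CPM with control siRNA, 149 and 177 CPM with *TRPS1* siRNA, and 117 and 137 CPM with *CHD4* siRNA. Its log2 fold change was 0.26 (0.49, edgeR adjusted p = 0.870) with *TRPS1* siRNA and -0.09 (0.49, adjusted p = 0.972) with *CHD4* siRNA. Between the knockdowns the groups did not overlap, and *SUZ12* was lower with *CHD4* siRNA by a log2 fold change of -0.35 (0.16, 95% interval -0.75 to 0.05, edgeR unadjusted p = 0.0776, adjusted p = 0.381). The pseudogene *SUZ12P1* had 8 to 31 counts per library, against 1044 to 2693 for *SUZ12*, and reads that fit both are uncertain.

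*JARID2* (chr6:15246069-15522042), the accessory subunit with a catalytically dead demethylase domain, was at 114 and 77.3 CPM with control siRNA, 83.2 and 82.6 CPM with *TRPS1* siRNA and 88.2 and 58.2 CPM with *CHD4* siRNA. The groups overlapped. The log2 fold change was -0.20 (standard error 0.35, edgeR adjusted p = 0.859) with *TRPS1* siRNA, -0.38 (0.41, adjusted p = 0.840) with *CHD4* siRNA and -0.17 (0.23, adjusted p = 0.781) between the knockdowns. The antisense gene *JARID2-AS1* overlaps it, and the sources used here do not state whether strand was used in counting.

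In PRC1, *RNF2* (chr1:185045558-185102603), the main E3 ligase subunit, was at its highest with *CHD4* siRNA. It had 37.6 and 39.2 CPM there, 26.4 and 28.0 CPM with *TRPS1* siRNA and 27.3 and 36.0 CPM with control siRNA. The knockdown groups were each within 2 CPM and did not overlap with each other, control replicate 1 lay within the *TRPS1* siRNA range, and control replicate 2 lay between both knockdowns. The log2 fold change between *CHD4* siRNA and *TRPS1* siRNA was 0.50 (standard error 0.16, 95% interval 0.12 to 0.89, edgeR unadjusted p = 0.0194, adjusted p = 0.228). Leaving out each library in turn gave 0.45 to 0.57. Against control siRNA it was -0.21 (0.36, -1.09 to 0.66, edgeR adjusted p = 0.856) with *TRPS1* siRNA and 0.29 (0.39, -0.63 to 1.20, adjusted p = 0.871) with *CHD4* siRNA, and leaving out each library in turn gave -0.40 to -0.0029 and 0.11 to 0.50.

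*CBX2* (chr17:79777311-79787983), the chromodomain subunit that reads the PRC2 mark and compacts chromatin, showed the lowest levels with *TRPS1* siRNA and the widest spread in the control. Its levels were 173 and 71.7 CPM with control siRNA, 60.5 and 72.0 CPM with *TRPS1* siRNA and 108 and 102 CPM with *CHD4* siRNA. Control replicate 2 lay within the *TRPS1* siRNA range and control replicate 1 above every other library. The log2 fold change was 0.67 between *CHD4* siRNA and *TRPS1* siRNA (standard error 0.16, 95% interval 0.28 to 1.06, edgeR unadjusted p = 0.00597, adjusted p = 0.152), and 0.54 to 0.82 when each library was left out in turn. With all 6 libraries in one fit the unadjusted edgeR p was 0.159, and 0.126 for *RNF2*. That fit also takes its spread from the control libraries, which resembled each other less. With the replicate number as a block, *CBX2*, *RNF2* and *SUZ12* passed an edgeR adjusted p under 0.05, among 3372 genes called. The labels do not say that replicate numbers pair the libraries. Across genes, the difference between replicates 1 and 2 correlated at r = 0.65 between the *TRPS1* siRNA and *CHD4* siRNA groups. Against control siRNA the log2 fold change was -0.88 (0.48, -2.04 to 0.28, edgeR adjusted p = 0.664) with *TRPS1* siRNA and -0.22 (0.48, -1.33 to 0.90, adjusted p = 0.922) with *CHD4* siRNA. Without control replicate 1 these became -0.11 and 0.57, and without control replicate 2 -1.38 and -0.71.

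*BMI1* (chr10:22321099-22331706), the PCGF subunit of canonical PRC1, was near the limit of these libraries. It had 69 and 16 counts in the control libraries, 17 and 23 with *TRPS1* siRNA and 8 and 23 with *CHD4* siRNA, or 5.06 and 1.21, 1.63 and 1.51, and 0.747 and 1.84 CPM. Only control replicate 1 exceeded 2 CPM, so the gene was not tested. With a filter at 0.5 CPM the log2 fold change was -1.0 (standard error 0.88, edgeR adjusted p = 0.753) with *TRPS1* siRNA and -1.27 (0.98, adjusted p = 0.806) with *CHD4* siRNA. The read-through gene *COMMD3-BMI1* overlaps it and had at most 2 counts in a library, and reads that fall in both genes may have been left uncounted. Levels were not compared between members, because exon lengths were not used here.

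**Figure D3:**
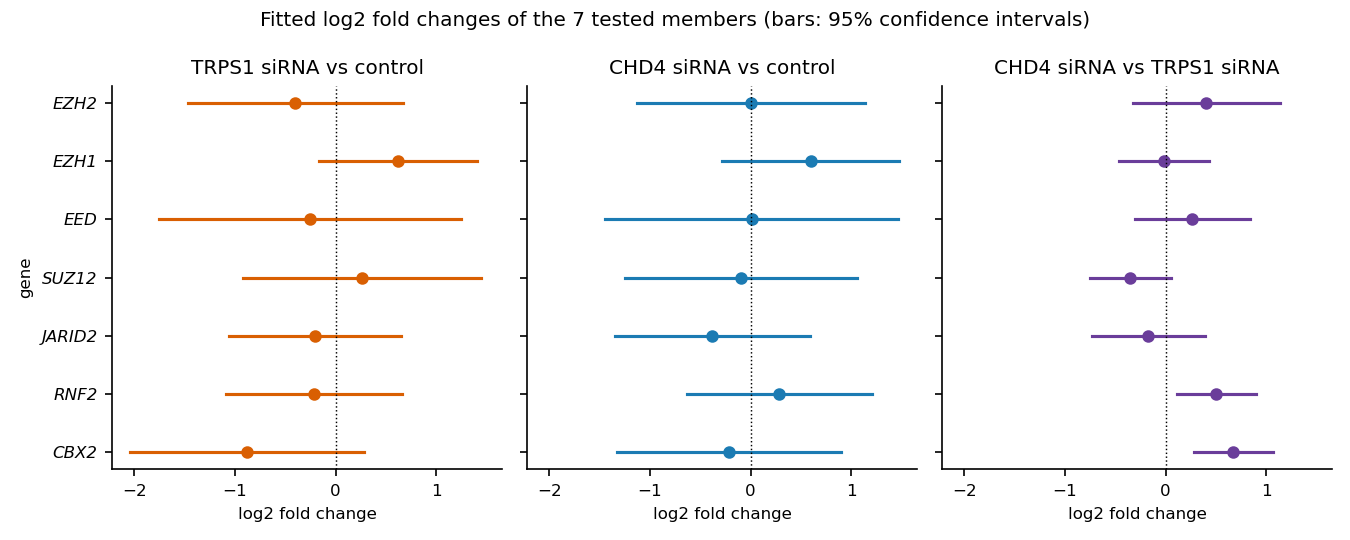
Fitted log2 fold changes (horizontal axes) of the 7 tested Polycomb subunits in 3 comparisons, with 95% confidence intervals from the edgeR quasi-likelihood fit as bars. The intervals exclude 0 for *RNF2* and *CBX2* between *CHD4* siRNA and *TRPS1* siRNA, before adjustment over all genes, and include 0 in every comparison with control siRNA.

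The calls against control siRNA rested on which control library was used. Without control siRNA replicate 2, which leaves replicate 1 as the only control and assumes that it varies like the *TRPS1* siRNA libraries, 4 of the 7 subunits passed an edgeR adjusted p under 0.05 with *TRPS1* siRNA: *EZH1* at a log2 fold change of 0.66, *EED* at 0.98, *SUZ12* at 1.09 and *CBX2* at -1.38. In that fit 6070 of 12805 genes were called. Without control siRNA replicate 1 no subunit passed, 290 genes were called, and *EZH1* stood at 0.58, *EED* at -0.91, *SUZ12* at -0.26 and *CBX2* at -0.11. Of these 4 genes, *EED* and *SUZ12* thus turned sign with the control library, and *EZH1* and *CBX2* did not. With *CHD4* siRNA 1 subunit, *EED* at 1.25, passed without control replicate 2, in a fit that called 3874 of 12785 genes. Without control replicate 1 no subunit passed with *CHD4* siRNA, and 0 of 12792 genes were called, with 1869 at an unadjusted edgeR p under 0.05.

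Genes that work with the core subunits were taken as lists. Of 9 PRC2 partners 7 were tested, and 0 had an unadjusted edgeR p under 0.05 with *TRPS1* siRNA, where 6.98% of all genes did, and 1 with *CHD4* siRNA, where 5.95% did. The median log2 fold change was 0.19 and -0.15, beside -0.02 over all genes tested in each comparison. With *CHD4* siRNA that gene was *LCOR*, a locus that also encodes the PRC2 accessory subunit PALI1. It was at 36.7 and 107 CPM with control siRNA, 100.5 and 123 CPM with *TRPS1* siRNA and 183 and 192 CPM with *CHD4* siRNA, a log2 fold change of 1.39 (standard error 0.53, edgeR unadjusted p = 0.0334, adjusted p = 0.792) for *CHD4* siRNA. Both *CHD4* siRNA libraries lay above the other 4. This count cannot separate PALI1 from the LCOR corepressor of the same locus. *C10orf12*, a synonym of *LCOR* in RefSeq that is counted separately in the tables, was at 25.4 and 29.7 CPM with control siRNA, 29.7 and 40.5 CPM with *TRPS1* siRNA and 34.0 and 37.4 CPM with *CHD4* siRNA, with both *CHD4* siRNA libraries within the range of the *TRPS1* siRNA libraries. *AEBP2*, the zinc finger subunit that joins PRC2 together with JARID2, had 38.5 and 69.6 CPM with control siRNA, 88.2 and 95.2 CPM with *TRPS1* siRNA and 62.8 and 56.1 CPM with *CHD4* siRNA. Its log2 fold change with *TRPS1* siRNA was 0.77 (0.40, edgeR adjusted p = 0.659).

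Of 24 PRC1 partners 23 were tested, and 0 had an unadjusted p under 0.05 in either knockdown against control siRNA, with median log2 fold changes of -0.06 in both. The values farthest from 0 belonged to *SCML2* and *L3MBTL2*, both with MBT domains, at -0.87 each with *CHD4* siRNA. *SCML2* was at 48.2 and 62.0 CPM with control siRNA and 25.8 and 34.2 CPM with *CHD4* siRNA (edgeR unadjusted p = 0.0662, adjusted p = 0.792). *L3MBTL2* was at 51.1 and 29.0 CPM with control siRNA and 22.6 and 21.0 CPM with *CHD4* siRNA (edgeR unadjusted p = 0.0842, adjusted p = 0.792). Of 11 genes that remove the Polycomb marks or recruit the enzyme that does, 10 were tested. Of these, 0 with *TRPS1* siRNA and 1 with *CHD4* siRNA had an unadjusted p under 0.05, and the medians were 0.12 and 0.06. The 1 gene was *FOXK1*, a forkhead factor that brings the deubiquitylase BAP1 to DNA, at 204 and 186 CPM with control siRNA, 326 and 322 CPM with *TRPS1* siRNA and 382 and 325 CPM with *CHD4* siRNA. Its 4 knockdown libraries all lay above the controls, with log2 fold changes of 0.74 (standard error 0.31, edgeR adjusted p = 0.659) and 0.87 (0.35, adjusted p = 0.792). As for *EZH1*, the share of all genes with this order was not computed. Its paralog *FOXK2* was at 244 and 101 CPM with control siRNA and 79.7 to 111 CPM in the knockdown libraries, a log2 fold change of -0.88 (0.49, edgeR adjusted p = 0.664) with *TRPS1* siRNA.

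Among genes that Polycomb complexes are known to keep silent, those with enough counts to be tested did not share a direction. Targets with lower counts were not tested, so the values below describe targets that had RNA in these cells. Of 39 HOX genes 14 passed the filter on low counts, 6 of them with a positive log2 fold change with *TRPS1* siRNA and 5 with *CHD4* siRNA, and the medians were -0.08 and -0.18. *HOXC13* was the 1 HOX gene past a fold change of 2 and an unadjusted p under 0.05, 1 of the 14 in both comparisons, beside 5.87% and 5.45% of all genes, and lower in each. It was at 64.4 and 24.4 CPM with control siRNA, 13.4 and 12.9 CPM with *TRPS1* siRNA and 18.2 and 16.4 CPM with *CHD4* siRNA. The log2 fold change was -1.75 (standard error 0.53, edgeR adjusted p = 0.659) and -1.35 (0.53, adjusted p = 0.792). *HOXB3* was at 40.6 and 17.0 CPM with control siRNA, 20.2 and 19.6 CPM with *TRPS1* siRNA and 12.3 and 13.2 CPM with *CHD4* siRNA, with a log2 fold change of -1.16 (0.52, edgeR adjusted p = 0.792) for *CHD4* siRNA. Of 18 other target genes 7 were tested, with medians of -0.43 and -0.52. *CDKN2A*, which encodes the cell cycle inhibitor p16 and is a classical Polycomb target, had log2 fold changes of -2.33 (0.93, edgeR adjusted p = 0.659) and -2.24 (0.88, adjusted p = 0.792). The control libraries differed widely. It was at 63.4 CPM in control replicate 1 and 7.47 CPM in control replicate 2, within the 6.04 to 8.34 CPM of the 4 knockdown libraries. *CDKN2B*, its neighbour encoding p15, was at 1.17 and 8.22 CPM with control siRNA, 20.8 and 9.84 CPM with *TRPS1* siRNA and 4.85 and 7.70 CPM with *CHD4* siRNA, a log2 fold change of 1.71 (0.90, edgeR adjusted p = 0.659) with *TRPS1* siRNA.

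**Figure D4:**
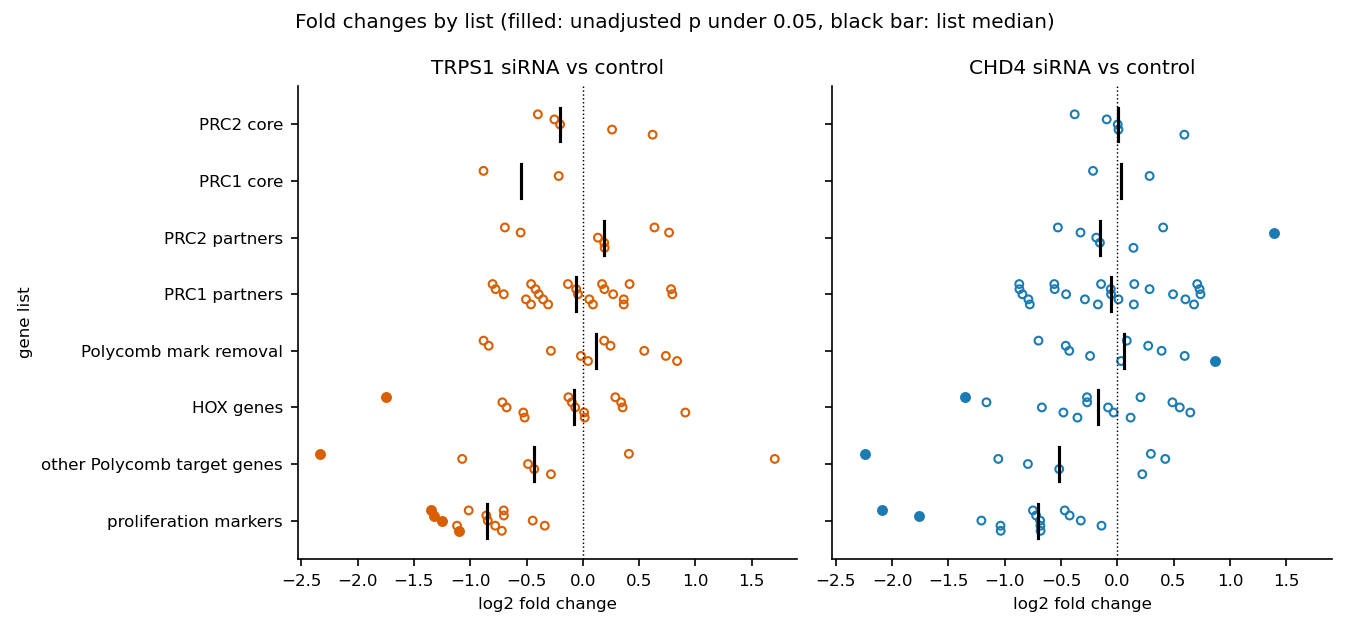
Log2 fold changes (horizontal axes) of the tested genes of each list against control siRNA, for *TRPS1* siRNA (left) and *CHD4* siRNA (right), which share the control libraries, with filled points at an unadjusted edgeR p under 0.05 and black bars at the list medians. The PRC2 core, partner and HOX lists lie on both sides of 0 in both panels. The 2 tested PRC1 core genes both lie below 0 with *TRPS1* siRNA, and the 14 proliferation markers all lie below 0 in both panels.

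*EZH2* is known to be induced in dividing cells, and its values are set beside those of 14 proliferation markers. Their summed level was 2334 and 3497 CPM with control siRNA, 1216 and 2306 CPM with *TRPS1* siRNA and 1184 and 2622 CPM with *CHD4* siRNA. In each group both this sum and *EZH2* were higher in replicate 2. All 14 markers had a negative log2 fold change in both comparisons, with medians of -0.85 with *TRPS1* siRNA and -0.70 with *CHD4* siRNA. Of all genes tested, 6264 of 12921 and 6271 of 12918 had a positive one. Beside 6.98% and 5.95% of all genes, 4 and 2 of the markers had an unadjusted edgeR p under 0.05. With *TRPS1* siRNA these were the cyclins *CCNA2* (-1.35) and *CCNB1* (-1.10), the replication helicase gene *MCM5* (-1.33) and *E2F1* (-1.25), and with *CHD4* siRNA *MCM5* (-1.76) and the nucleotide synthesis gene *TYMS* (-2.09). No marker passed an adjusted p under 0.05. The part of proliferation in the values of *EZH2* was not tested.

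The genes whose levels over the 6 libraries were most like those of *EZH2* and *RNF2* were found by the root mean square difference of log2 CPM, with each gene centred on its mean, among 13268 genes. For *EZH2* they were *TEX30* (0.07), *TWSG1* (0.09) and *CEP78* (0.10), where the median over all genes was 0.57. *CEP78* encodes a centrosomal protein and *TWSG1* a secreted modulator of BMP signalling. For *RNF2* they were *ALG9* (0.06), *SLC39A6* (0.06) and *RBM7* (0.07), where the median was 0.48. *ALG9* encodes a mannosyltransferase of N-glycosylation, *SLC39A6* a zinc transporter and *RBM7* a subunit of a nuclear exosome adaptor. The 6 values of each gene share their libraries and scaling, and the likeness is a description.

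**Figure D5:**
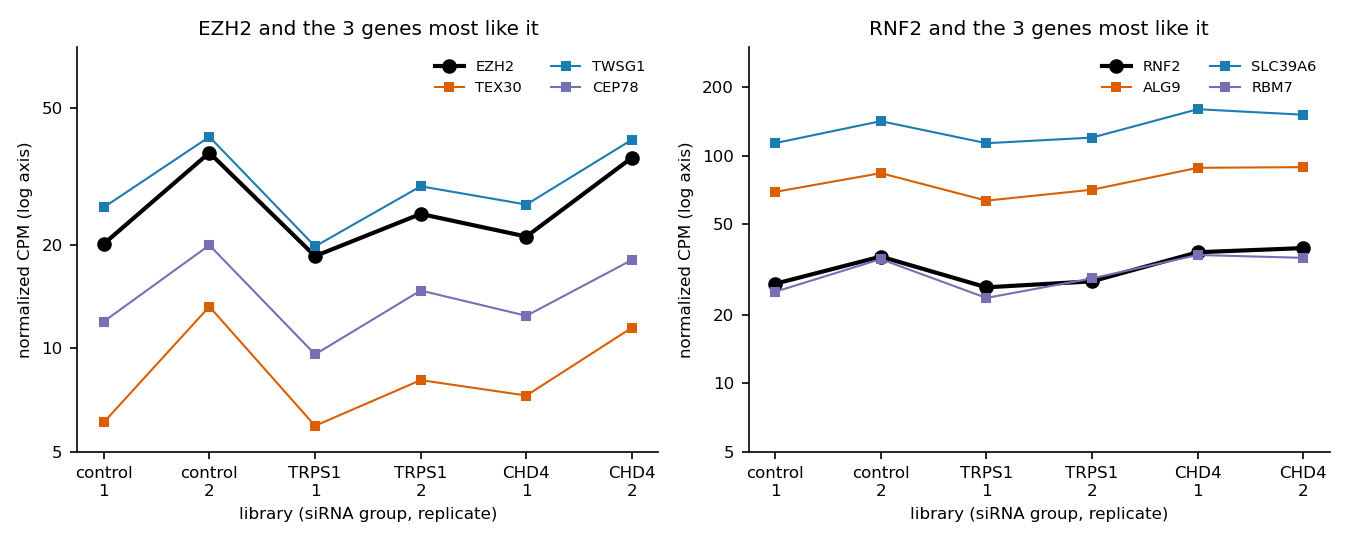
Normalized CPM on a log axis of *EZH2* (left, black) and *RNF2* (right, black) with the 3 genes nearest in pattern, over the 6 libraries in the order control siRNA, *TRPS1* siRNA and *CHD4* siRNA, replicates 1 and 2. The lines run parallel, with *EZH2* and its neighbours higher in replicate 2 of each group and *RNF2* and its neighbours highest with *CHD4* siRNA.

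The TRPS1 peaks were set beside the positions of the Polycomb subunits. The peak list holds 1844 peaks with a median width of 288 bp. None lay within 50 kb of a start for the 8 members whose start is in the promoter table. The share of all genes with a peak that near their start was not computed, so this count is a description. The nearest start was that of *EZH1*, 66.4 kb from a peak (chr17:42678438-42678757) that lies 21.5 kb past the end of the gene. Of the other PRC2 genes, *JARID2* was 160.9 kb from its nearest peak, *EZH2* 181.8 kb, *SUZ12* 220.4 kb and *EED* 755.7 kb. Of the PRC1 genes *RNF2* was 115.3 kb away, *RING1* 1184.3 kb and *BMI1* 2220.4 kb. *JARID2* was the 1 member with a peak inside the gene, at chr6:15409627-15409838. Measured from the whole gene, 1 of the 9 members held a peak, beside 5.60% of the 13036 tested genes with a position, and 2 of the 9, *JARID2* and *EZH1*, lay within 50 kb of one, beside 16.9%. *CBX2*, measured in this way, was 343.2 kb from its nearest peak. The list carries no peak heights, so binding strength at these sites was not compared.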

How the data were processed

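RNA-seq of T47D cells with control, *TRPS1* or *CHD4* siRNA and a TRPS1 ChIP-seq peak list were used, with samples grouped by their labels. RNA-seq reads were aligned by the authors with STAR, and HTSeq (0.9.0 in the submitters' processing notes) gave the deposited counts per gene, which are not normalized. The authors aligned ChIP-seq reads with BWA (0.7.12-r1039) and called peaks with MACS2 (2.1.1) on hg38, and peak positions were deposited. Whether peaks were called on pooled libraries is not given in the sources used here, nor is the strand setting of the counts. Control columns occurred in both tables and were equal.

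Each pair of groups was fitted in edgeR (4.0.16, R 4.3.3): TMM factors, genes with 2 or more of the 4 libraries over 2 CPM, quasi-likelihood F-test, prior count 0.125, Benjamini-Hochberg adjustment over all genes tested. Standard errors were derived from each log2 fold change and its F statistic. Tables were joined by gene symbol, and symbols were also matched through RefSeq synonyms that name a single gene. Alternatives were the likelihood ratio test, DESeq2 (1.42.0), RLE or no scaling factors, other filters (over 2 CPM in every library, over 0.5 CPM, none), all 6 libraries, a replicate block, a prior count of 2 and leaving out each library. Simulated counts were used to try the fit, with a true log2 difference of 2 given to 200 genes per comparison. With *TRPS1* siRNA against control siRNA, at a dispersion of 0.142, it recovered 69 of the 200 with 2 false calls. With *CHD4* siRNA against control siRNA, at 0.151, it recovered 63 with 1 false call. Between the knockdowns, at 0.041, it recovered 190 with 6 false calls. At a dispersion of 0.02 it recovered 196, 196 and 198 in the same order. Gene and start positions come from RefSeq (GRCh38.p14). A start was known for 78.7% of 13269 tested genes, too few for a share over all genes, and a gene position for 98.2%. The members and lists were chosen with earlier results of these data known. All members were named, as were genes of the partner, mark removal, target and proliferation lists past a fold change of 2 and an unadjusted p under 0.05 against control siRNA or, where fewer than 2 passed, the 2 with the largest absolute log2 fold change, and the 3 genes most like *EZH2* and *RNF2*. Another gene of the PRC1 partner list is not reported here. Protein sequences were not used here.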

Additional observations from a re-analysis of the deposited data

How the results depend on the processing

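Over all alternatives, 264 of the log2 fold changes of single subunits kept their sign and their side of the threshold, 23 changed sign and 7 passed the threshold with the sign kept. The cause of these changes was not tested. Leaving out each library in turn moved the number of subunits called from 0 to 4 (*TRPS1* siRNA against control siRNA), 0 to 1 (*CHD4* siRNA against control siRNA) and 0 to 0 (direct), and those past the fold change and p threshold from 0 to 2, 0 to 1 and 0 to 0. The highest values came without control siRNA replicate 2. Log2 fold changes that turned sign in this way ranged, with *TRPS1* siRNA, from -0.77 to 0.11 for *EZH2*, -0.91 to 0.98 for *EED*, -0.26 to 1.09 for *SUZ12* and -0.46 to 0.11 for *JARID2*. With *CHD4* siRNA they ranged from -0.40 to 0.51 for *EZH2*, -0.63 to 1.25 for *EED*, -0.61 to 0.74 for *SUZ12* and -0.71 to 0.57 for *CBX2*, and between the knockdowns from -0.013 to 0.73 for *EZH2*, -0.22 to 0.16 for *EZH1*, -0.021 to 0.51 for *EED* and -0.51 to 0.11 for *JARID2*. The *EZH2* to *EZH1* log2 ratio between the knockdowns ranged from -0.16 to 0.97. With *CHD4* siRNA against control siRNA, values near 0 also turned with library sizes alone (*SUZ12* 0.034), a filter at 0.5 CPM (*EZH2* -0.023, *EED* -0.020) and no filter (*EZH2* -0.016, *EED* -0.014). A peak lay within 100 kb of the start of 1 member, and within 5 kb of none, without a share over all genes. Measured from the whole gene, 2 of the 9 members lay within 100 kb of a peak, beside 25.2% of the tested genes. Within 5 kb it was 1 of the 9, beside 7.99%.

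The labels do not say that replicate numbers mark a shared culture or day. The difference between replicates 1 and 2 correlated across 13269 genes at r = 0.65 between the *TRPS1* siRNA and *CHD4* siRNA groups, and at 0.09 and 0.02 between control siRNA and these groups. With the replicate number as a block, 3 subunits were called between *CHD4* siRNA and *TRPS1* siRNA, *SUZ12* at -0.35, *RNF2* at 0.50 and *CBX2* at 0.67 (edgeR adjusted p = 0.0177, 0.00387 and 7e-07), among 3372 genes called in place of 0. Against control siRNA the block called no subunit, with 32 and 44 genes called, and turned *EED* to 0.022 with *TRPS1* siRNA and *SUZ12* to 0.055 with *CHD4* siRNA. Among the subunits with a count row *BMI1* had the fewest counts, at 8 to 69 per library.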

Other observations

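Partners outside the core also differed directly between the knockdowns at an unadjusted edgeR p under 0.05, a set named after its values were seen. Of the 7 PRC2 partners tested these were 1 higher and 1 lower with *CHD4* siRNA, and of the 23 PRC1 partners 4 higher and 2 lower, where 15.4% of all genes had such a p. *LCOR* was higher by a log2 fold change of 0.76 (standard error 0.16, edgeR adjusted p = 0.136) and *AEBP2* lower by -0.62 (0.15, adjusted p = 0.166). *PCGF5*, a subunit of noncanonical PRC1, stood at 0.80 (0.20, edgeR adjusted p = 0.172) and the PRC1 partner *SCML1* at -0.81 (0.31, adjusted p = 0.290). None of these passed an adjusted p under 0.05.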
